A study of Homo sapiens with 4 samples.

Results

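The interferon regulatory factors (IRFs) are a small family of transcription factors, and their mRNA levels were examined in OCI-AML3 cells after CRISPR editing of mutant NPM1. The members were picked by gene symbol as a family, and are IRF1, IRF2, IRF3, IRF4, IRF5, IRF7, IRF8 and IRF9. These 8 genes are among 58037 in the deposited count table, and 7 of them had enough counts to be tested. OCI-AML3 is an established human acute myeloid leukemia (AML) line which, according to the study, carries a heterozygous NPM1 mutation (mtNPM1), a DNMT3A mutation and a homozygous NRAS mutation, so both conditions share these alleles. Cells were transfected with a control guide RNA (sgNeg in the labels, named sgRNA Ctrl below) or with sgNPM1A, a guide directed against mtNPM1, and were harvested 3 days (72 hours) later. Each condition has 2 libraries, numbered 1 and 2, of bulk total RNA. The labels speak of transfected cells and of no isolated clone, so a library may hold edited and unedited cells together. It follows that fewer cells of a type and less RNA per cell cannot be told apart.

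IRFs share a DNA-binding domain that reads GAAA repeats, and the paired repeat found at interferon-responsive promoters is called the interferon-stimulated response element (ISRE). IRF3, IRF5 and IRF7 are held in the cytoplasm until viral or Toll-like receptor sensing leads to their phosphorylation, after which they drive interferon and cytokine genes. IRF9 joins STAT proteins in the complex that carries the interferon signal to ISREs, IRF1 activates many of the same promoters and IRF2 can oppose it there. IRF8 and IRF4 act mainly in blood cells, often together with the ETS factor PU.1 (the product of SPI1), and IRF8 is needed for the monocyte and dendritic lineages.

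The promoter sequences of the members are shown here because IRF genes are themselves controlled through such sites. RefSeq promoter windows on GRCh38.p14, each running from 250 bases before to 50 bases after an annotated start site, were found for 5 of the 8 members, IRF1, IRF4, IRF5, IRF8 and IRF9, in 9 windows. Both strands were searched for 3 motifs, where N stands for any base. They are the ISRE core, spelled GAAA then NN then GAAA, the GAS element that STAT dimers bind, spelled TTC then NNN then GAA, and the ETS-IRF composite, spelled GGAA then NN then GAAA. No member window held the ISRE core, which 4.38% of all 27305 genes with a window did. The GAS letters stood in the windows of IRF1 and IRF9, against 9.38% of all genes, and the ETS-IRF letters in a window of IRF5, against 3.47% of all genes. Positions count from the first transcribed base, and capitals mark the matched letters in the next sequences. The IRF1 sequence is the whole stretch of 250 bases before the start (chr5:132490774-132491023, minus strand), with the GAS letters at position -124. The IRF9 piece is chr14:24161192-24161220 on the plus strand, with its match at -63. The IRF5 piece is chr7:128940627-128940656 on the plus strand, where the composite reads as its reverse complement and lies at -33 of 1 of 4 annotated start windows.
IRF1: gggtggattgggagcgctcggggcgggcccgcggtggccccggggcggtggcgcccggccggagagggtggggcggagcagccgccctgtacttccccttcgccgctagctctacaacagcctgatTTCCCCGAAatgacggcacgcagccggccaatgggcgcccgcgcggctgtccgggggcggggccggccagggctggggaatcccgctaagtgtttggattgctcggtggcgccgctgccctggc
IRF9: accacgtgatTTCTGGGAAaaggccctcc
IRF5: gtctagccacTTTCGTTTCCcctggggccg
A match to these letters describes the sequence and does not show that a factor binds there.

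Total counts per library lay between 25069484 and 28276391, and mitochondrial genes took from 8.37% to 8.63% of them. With edgeR's quasi-likelihood test, and a call defined as a Benjamini-Hochberg adjusted p under 0.05 with a log2 fold change of at least 0.322 in size, 3272 of 15718 tested genes were called (20.8%), of which 1653 were higher (10.5% of tested genes) and 1619 lower (10.3%) with sgNPM1A. NPM1, the edited gene (chr5:171387116-171410900), had 1319 and 1385 CPM (counts scaled to a common library size of 1e6) with sgRNA Ctrl and 1189 and 1132 with sgNPM1A. This is a log2 fold change of -0.22 (edgeR adjusted p = 0.0360), under the fold threshold, and a gene-level count does not separate the mutant from the other allele. Of the markers of this line, PTPRC, CD33, ANPEP and MPO were present and CD34 had at most 9 counts in any library. MPO (log2 fold change 1.77) and ANPEP (0.49) were called higher and HOXA9 (-1.69) and MEIS1 (-2.46) lower with sgNPM1A. Markers of T cells and erythroid cells had at most 4 counts in any library, and all 5 markers of B cells together 1.36 to 2.71 CPM. Of the 5 fibroblast markers the summed level was 28.2 to 29.6 CPM with sgRNA Ctrl and 9.65 to 13.3 CPM with sgNPM1A, almost all of it COL1A2, with COL3A1 at 0 counts. The 5 epithelial markers summed to 3.07 to 4.25 CPM and 1.33 to 1.58 CPM in the same order, with EPCAM and KRT19 at 0 counts. The part of these genes in the results below was not tested.

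Members of the family changed after editing in both directions. IRF5 and IRF8 were higher and IRF1, IRF2 and IRF7 were lower with sgNPM1A. Thus 5 of the 7 tested members were called (71.4%), against 20.8% of all tested genes. The family was chosen with earlier results of these data known, so this share is a description and not an independent test. IRF3 and IRF9 did not pass the test and IRF4 was at the limit of detection. The 2 values of each condition did not overlap in any of the 7 tested members, which was also true of 63.1% of all tested genes.

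IRF5, which drives inflammatory cytokine genes in monocytes and macrophages, showed the smallest adjusted p of the family and stood at rank 23 among all tested genes. IRF5 (ENSG00000128604.18, chr7:128937032-128950038) had 63.3 and 64.2 CPM with sgRNA Ctrl and 175.2 and 183.5 CPM with sgNPM1A, from 1610 and 1663 counts and 4883 and 5094 counts. Both edited libraries were far above both controls, and the spread within each condition was small beside the gap, at 63.8 ± 0.618 CPM (SD, n = 2) against 179.3 ± 5.85 CPM (SD, n = 2). The log2 fold change was 1.49 with a standard error of 0.07 and a 95% interval from 1.34 to 1.64, a 2.81-fold rise (edgeR adjusted p = 9.52e-08). In 98.4% of tested genes the log2 fold change was equal or lower.

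IRF8, a determinant of the monocytic and dendritic fate, was the most abundant member in every library. IRF8 (ENSG00000140968.10, chr16:85899162-85922609) stood at 659.9 and 613.7 CPM with sgRNA Ctrl and at 1090 and 1124 CPM with sgNPM1A. The control libraries were both lower than the edited ones, without overlap. The log2 fold change was 0.80 with a standard error of 0.07 and a 95% interval from 0.64 to 0.95, a 1.74-fold rise (edgeR adjusted p = 1.08e-05). By mean CPM, IRF8 was at or above 99.3% of the tested genes. Both RefSeq promoter windows given for it lie inside the gene's span and held none of the 3 motifs.

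IRF1, the activator of interferon and antigen presentation genes, fell most. IRF1 (ENSG00000125347.13, chr5:132481609-132490773, the gene whose upstream sequence is given above) had 78.5 and 90.4 CPM with sgRNA Ctrl and 45.2 and 39.2 CPM with sgNPM1A. Both edited libraries were well below both controls, with a log2 fold change of -1.0, a standard error of 0.10 and a 95% interval from -1.21 to -0.79 (edgeR adjusted p = 1.93e-05). Exons of the long noncoding IRF1-AS1 lie opposite 580 bases (16.3%) of the canonical IRF1 transcript. IRF1-AS1 had 92 and 102 counts against 83 and 66, a log2 fold change of -0.50 that did not pass the test (edgeR adjusted p = 0.077). Whether the library kit kept the strand is not given in the sources used here, so reads in the shared bases cannot be told apart.

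IRF2, known as a repressor at IRF1 sites, was lower in the same libraries as IRF1. IRF2 (ENSG00000168310.10, chr4:184387729-184474550) had 33.9 and 35.1 CPM with sgRNA Ctrl and 21.6 and 21.2 CPM with sgNPM1A. The replicates of each condition were close to each other and the conditions did not overlap. The log2 fold change was -0.69 with a standard error of 0.09 and a 95% interval from -0.88 to -0.50 (edgeR adjusted p = 1.37e-04).

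IRF7, the amplifier of type I interferon production, fell less and less firmly. IRF7 (ENSG00000185507.19, chr11:612555-615950) had 324 and 292 counts with sgRNA Ctrl and 218 and 249 with sgNPM1A, that is 12.7 and 11.3 CPM against 7.82 and 8.97 CPM. All edited values were below all control values, with a log2 fold change of -0.52, a standard error of 0.13 and a 95% interval from -0.80 to -0.23 (edgeR adjusted p = 0.0127). The call was lost without library 1 of sgRNA Ctrl (log2 fold change -0.43, edgeR adjusted p = 0.0638) and without library 1 of sgNPM1A (-0.42, edgeR adjusted p = 0.104).

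IRF3, the other first responder to viral nucleic acid, moved little. IRF3 (ENSG00000126456.15, chr19:49659572-49665857) had 117.9 and 130.7 CPM with sgRNA Ctrl and 116.9 and 103.9 CPM with sgNPM1A. The lowest control and the highest edited library were nearly level. The log2 fold change of -0.17 had a 95% interval from -0.35 to 0.01 (edgeR adjusted p = 0.146), so these libraries leave room for a decline of up to 0.35 on the log2 scale. BCL2L12 lies on the opposite strand over 227 bases (14.2%) of the canonical IRF3 transcript, and its log2 fold change was 0.25 (edgeR adjusted p = 0.0541).

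IRF9, the DNA-binding subunit of the interferon-activated STAT complex, was the scarcest member with a measurable level. IRF9 (ENSG00000213928.8, chr14:24161265-24166565) had 52 and 71 counts with sgRNA Ctrl and 49 and 55 with sgNPM1A, a log2 fold change of -0.36 with a 95% interval from -0.86 to 0.15 (edgeR adjusted p = 0.287). A readthrough gene on the same strand shares 1513 of the 1626 bases (93.1%) of its canonical transcript and was listed with 29, 30, 21 and 37 counts in the same order, so the IRF9 level is uncertain.

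IRF4, which guides lymphoid and plasma cell fates, had 1 and 0 counts with sgRNA Ctrl and 0 and 1 with sgNPM1A (ENSG00000137265.14, chr6:391752-411443). A count of 0 allows up to 3 counts, or 0.108 to 0.118 CPM in these libraries by counting error alone, and no fold was computed.

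**Figure D1:**
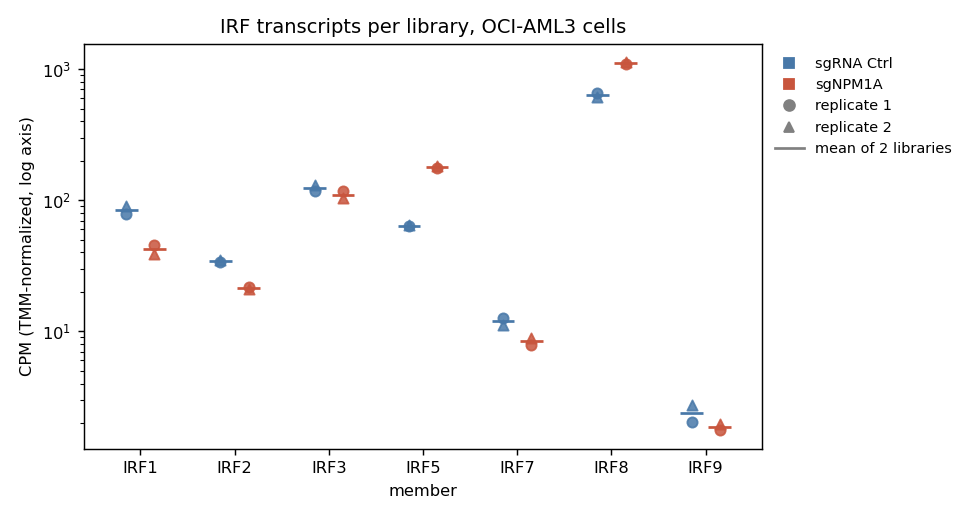
CPM (log axis) of the 7 tested IRF members in each of the 4 libraries, with sgRNA Ctrl in blue, sgNPM1A in red, replicate 1 as circles, replicate 2 as triangles and the mean of 2 libraries as a bar. IRF5 and IRF8 sit higher and IRF1, IRF2 and IRF7 lower with sgNPM1A, while the points of IRF3 nearly meet at 117 to 118 CPM.

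The changes of the called members were next set beside each other across other analysis settings. Over 15 alternatives the log2 fold change of IRF5 stayed between 1.45 and 1.53, that of IRF8 between 0.70 and 0.85, that of IRF1 between -1.11 and -0.89 and that of IRF2 between -0.73 and -0.66. IRF7 ranged from -0.62 to -0.42. The widest relative range was that of IRF9, from -0.55 to -0.13. Alternatives that alter only the fold threshold reuse the main fit, so their log2 fold changes equal the main ones by construction.

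**Figure D2:**
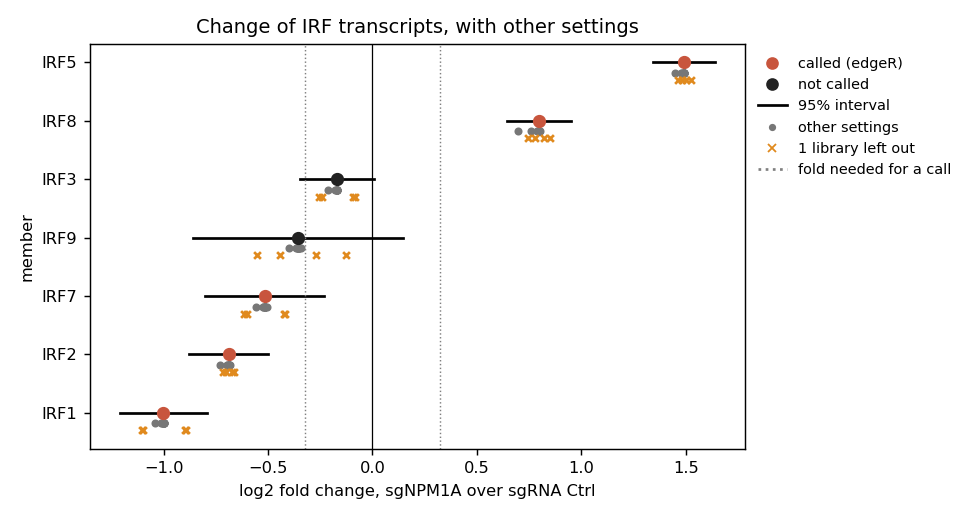
Log2 fold change of each tested member, sgNPM1A over sgRNA Ctrl, with its 95% interval, the other settings as grey points and the fits with 1 library left out as crosses. Dotted lines mark the fold needed for a call, 0.322 on the log2 scale. The interval of IRF5 (1.34 to 1.64) lies above that of IRF8 (0.64 to 0.95), and those of IRF3 and IRF9 include 0.

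To compare levels between members, CPM were divided by the length of the canonical transcript. On this scale of CPM per kilobase the order with sgRNA Ctrl was IRF8, IRF3, IRF1, IRF5, IRF2, IRF7, IRF9 and IRF4. IRF8 stood at 238.7 ± 12.2 (SD, n = 2) and IRF3 at 77.9 ± 5.64 (SD, n = 2) CPM per kilobase. IRF1, at 22.1 and 25.4 CPM per kilobase, and IRF5, at 21.9 and 22.2, overlapped, so the order of this pair was not resolved in the control cells. IRF2 followed at 15.3 ± 0.396 (SD, n = 2), IRF7 at 6.25 ± 0.541 (SD, n = 2) and IRF9 at 1.47 ± 0.303 (SD, n = 2) CPM per kilobase.

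With sgNPM1A the order on this scale became IRF8, IRF3, IRF5, IRF1, IRF2, IRF7, IRF9 and IRF4. Other choices of length moved some ranks in both conditions, as given further below. IRF8 rose to 414.8 ± 8.99 (SD, n = 2) CPM per kilobase. IRF5, at 60.4 and 63.3 CPM per kilobase, now came close to IRF3, at 73.3 and 65.1, and far above IRF1, at 12.7 and 11.03. IRF2 stood just below IRF1, at 9.59 and 9.38 CPM per kilobase, without overlap.

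The ratio of IRF5 to IRF1 on this scale was 0.989 and 0.871 with sgRNA Ctrl and 4.75 and 5.74 with sgNPM1A, a 5.63-fold shift. The ratio of IRF8 to IRF1 went from 11.2 and 9.04 to 32.1 and 38.2. IRF8 rose less than IRF5, and the ratio of IRF8 to IRF5 was 11.3 and 10.4 with sgRNA Ctrl and 6.76 and 6.65 with sgNPM1A. The ratio of the activator IRF1 to the repressor IRF2 was 1.47 and 1.63 with sgRNA Ctrl and 1.33 and 1.18 with sgNPM1A, so both fell and IRF1 somewhat more. These ratios are descriptions without a test of their own, and their size, though not their change, depends on the transcript lengths used.

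Summed over the members, the level was 388.1 and 382.6 CPM per kilobase with sgRNA Ctrl and 569.6 and 575.8 with sgNPM1A. IRF8 made up 61.9% of this sum in the control cells and 72.4% in the edited cells. The share of IRF5 went from 5.71% to 10.8%, while that of IRF3 went from 20.2% to 12.1% and that of IRF1 from 6.17% to 2.07%. Because the shares sum to a fixed total, the share of IRF3 was smaller although its own level did not pass the test.

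**Figure D3:**
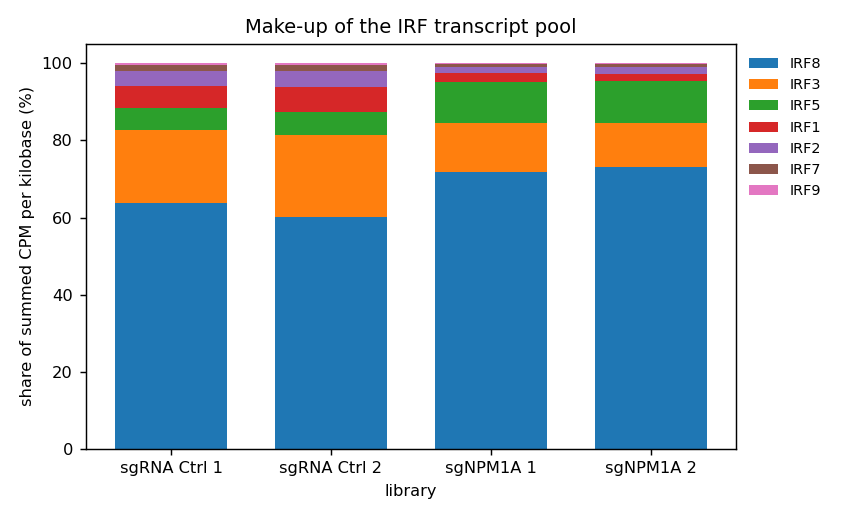
Share (%) of each member in the summed CPM per kilobase of the family, by library. IRF8 takes 60.1% to 63.7% with sgRNA Ctrl and 71.7% to 73.1% with sgNPM1A, IRF5 grows to 10.6% and 11% and the layers of IRF1, IRF2 and IRF7 thin.

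Genes around the family were then counted by their role, from lists drawn from general knowledge of the pathway. The lists were chosen with earlier results of these data known, so their shares are descriptions and not independent tests. Among 20 genes that sense nucleic acid or lipopolysaccharide and activate IRFs, 17 were tested, with 2 higher and 2 lower. This is 23.5% called, near the 20.8% of all tested genes, with a median log2 fold change of -0.01 (-0.09 to 0.03 over the alternatives), against 0 over all tested genes. TLR8, the endosomal receptor for RNA that signals to IRF5 and IRF7, had 3 and 7 counts with sgRNA Ctrl and 40 and 45 with sgNPM1A. It passed the filter on low counts only through the edited libraries, where it was high, so its call supports nothing by itself. The fitted log2 fold change of 2.94 became 2.48 without library 1 and 3.64 without library 2 of sgRNA Ctrl, and TLR8 was not tested where at least 10 counts were asked of every library. SLC15A4, which recruits the IRF5 adaptor TASL to the endolysosome, was higher (0.41, edgeR adjusted p = 0.0270), and TASL itself was not called (0.13, edgeR adjusted p = 0.177). The cytoplasmic RNA sensors RIGI (-0.73, edgeR adjusted p = 0.00301) and IFIH1 (-0.53, edgeR adjusted p = 0.0325) were lower, with 42.5% of the 50-base words of RIGI also found in other genes. The kinases TBK1 (0.02) and IKBKE (0.00), which phosphorylate IRF3 and IRF7, were not called. The calls of SLC15A4 and IFIH1 were lost in DESeq2 (adjusted p 0.0991 and 0.179). They were also lost when library 2 of sgRNA Ctrl or either sgNPM1A library was left out (edgeR adjusted p from 0.0559 to 0.117 for SLC15A4 and from 0.078 to 0.148 for IFIH1).

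Of 18 interferon and receptor pathway genes, 10 were tested, 2 were higher and none was lower (median log2 fold change 0.22). The 20% called is close to the 20.8% of all tested genes. The 7 interferon genes on the list (IFNA1, IFNB1, IFNW1, IFNK, IFNE, IFNL1 and IFNG) had at most 1 count in any library. Of the 50-base words of IFNA1, 59.6% are also found in other genes, so its count is uncertain. Other interferon alpha genes were not on the list. STAT2, the partner of IRF9, had 45.2 and 46.6 CPM with sgRNA Ctrl and 68.3 and 70.1 CPM with sgNPM1A, both edited libraries being higher by a log2 fold change of 0.59 (95% interval 0.43 to 0.75, edgeR adjusted p = 1.40e-04). JAK2 was higher by 0.82 (edgeR adjusted p = 0.0115), a call lost without library 2 of sgRNA Ctrl (0.51, edgeR adjusted p = 0.0625).

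Among 17 partners and cofactors of IRFs, 16 were tested, with 4 higher and 3 lower (43.8% called, against 20.8% of all tested genes). The median log2 fold change was -0.11, and -0.04 without either control library. SPI1, whose product PU.1 binds composite sites with IRF8 and IRF4, had 452.0 and 494.9 CPM with sgRNA Ctrl and 675.6 and 643.4 CPM with sgNPM1A. It was higher in both edited libraries, with a log2 fold change of 0.48 (95% interval 0.32 to 0.64, edgeR adjusted p = 5.52e-04). Of the AP-1 subunits, JUN (0.91) and JUND (0.64) were higher and JUNB (-0.34, edgeR adjusted p = 0.0051) was lower. BATF2, which pairs with IRF1 in macrophages, fell by 1.24 on the log2 scale, from 4.72 and 4.79 CPM to 2.19 and 1.84 CPM (edgeR adjusted p = 5.06e-04). IRF2BPL, a paralog of the IRF2-binding proteins, fell by 0.70 (edgeR adjusted p = 4.32e-04), while IRF2BP1 and IRF2BP2 were not called.

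Among interferon-stimulated genes listed as driven through ISREs, more were called lower than higher. Of 40 listed, 37 were tested, and 20 were lower and 2 higher (54.1% lower against 10.3% of all tested genes). The median log2 fold change was -0.50 and stayed between -0.60 and -0.43 over the alternatives. IFI44L, IFIT1 and IFIT2, counted as lower, passed the filter on low counts only through the control libraries, where they were high. Their calls therefore support nothing by themselves. Where at least 10 counts were asked of every library, 33 genes were tested and the median was -0.43. The oligoadenylate synthetases, which activate RNase L, were among the lowest. OAS2 had 14.01 and 12.9 CPM with sgRNA Ctrl and 4.52 and 3.78 CPM with sgNPM1A, with a log2 fold change of -1.70 (95% interval -2.01 to -1.39, edgeR adjusted p = 6.87e-06). OAS3 fell from 10.1 and 8.88 CPM to 3.16 and 2.67 CPM (log2 fold change -1.70, edgeR adjusted p = 1.72e-05). In both genes the edited libraries lay far below the controls. The antiviral genes IFIT5 (-1.72, edgeR adjusted p = 2.84e-04) and PARP14 (-0.96, edgeR adjusted p = 2.99e-05) were lower too. The exceptions were TRIM22, an antiviral ubiquitin ligase, at 0.53, and CMPK2, a mitochondrial nucleotide kinase, at 0.56, both called higher. MX1, MX2, IFI6, ADAR and 11 others were not called.

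**Figure D4:**
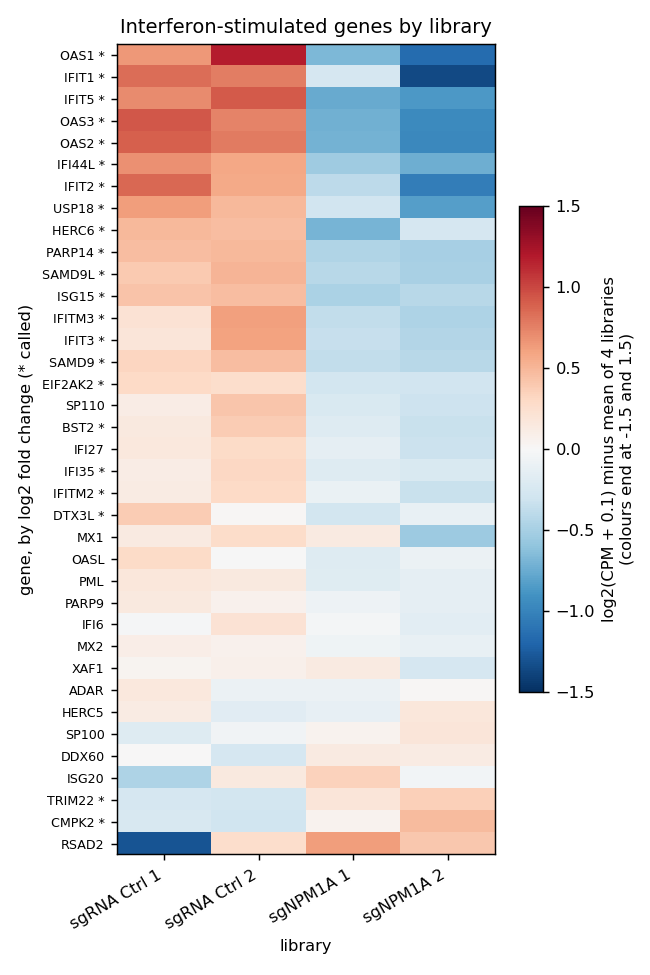
Log2(CPM + 0.1) of the 37 tested interferon-stimulated genes in each library, minus the mean of the 4 libraries, with red above and blue below that mean and colours ending at -1.5 and 1.5. Rows are ordered by log2 fold change and asterisks mark called genes. The 20 called lower, led by OAS1, are red in both controls and blue in both edited libraries, apart from paler cells such as DTX3L in library 2 of sgRNA Ctrl.

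Of the interferon-stimulated genes, 32 had a RefSeq promoter window, and 23 of these (71.9%) held the ISRE core, against 4.38% of all genes. The genes were listed as known to be driven through ISREs, so a high share was built into the list and is no result. The share was 12 of 16 (75%) for those called lower and 8 of 13 (61.5%) for the other tested ones, so the letters were common in both. Sites from genes called lower are printed as examples of the core letters, and binding there was not tested. Each is given in 30 bases on the gene's strand of GRCh38.p14. The core, or its reverse complement (TTTC then NN then TTTC), is in capitals. They are OAS3 (chr12:112938452-112938481, plus strand), PARP14 (chr3:122680800-122680829, plus strand), ISG15 (chr1:1013380-1013409, plus strand), IFIT5 (chr10:89414513-89414542, plus strand) and GBP4 (chr1:89198927-89198956, minus strand), the last from the IRF1 targets described next.
OAS3: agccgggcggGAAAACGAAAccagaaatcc
PARP14: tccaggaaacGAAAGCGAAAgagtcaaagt
ISG15: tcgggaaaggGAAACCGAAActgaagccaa
IFIT5: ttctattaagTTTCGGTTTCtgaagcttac
GBP4: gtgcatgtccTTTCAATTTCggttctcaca
The ISRE core and the ETS-IRF composite can share letters, and 91 of all 35116 windows held both.

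The genes known as IRF1 targets split. Of 26 listed, 21 were tested, with 4 higher and 4 lower (38.1% called, against 20.8% of all tested genes) and a median log2 fold change of 0.00, which lay between -0.10 and 0.05 over the alternatives. GBP4, an interferon-induced GTPase, had 12.2 and 13.8 CPM with sgRNA Ctrl and 3.48 and 2.88 CPM with sgNPM1A, with both edited libraries far lower (log2 fold change -2.03, 95% interval -2.36 to -1.69, edgeR adjusted p = 3.23e-06). IL15RA, the receptor chain that presents IL15, fell from 8.81 and 9.04 CPM to 3.66 and 3.71 CPM (-1.28, edgeR adjusted p = 5.87e-05). The immunoproteasome subunit PSMB9 (-0.54) and the peptide transporter TAP1 (-0.34) were the other genes called lower. Those called higher all belong to the MHC class I pathway, namely HLA-B (0.47, edgeR adjusted p = 3.54e-04), HLA-C (0.39), B2M (0.38) and the class I transactivator NLRC5 (0.50, edgeR adjusted p = 6.26e-04). Near-identical HLA sequences make the split between those genes uncertain, as 29.6% of the 50-base words of HLA-B occur in other genes.

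Among genes tied to IRF8 in monocytic cells, more were called higher than lower. Of 18 listed, 16 were tested, with 7 higher (43.8% against 10.5% of all tested genes), 2 lower (12.5% against 10.3%) and 7 not called. The median log2 fold change was 0.28, between 0.24 and 0.55 over the alternatives, the highest being without library 2 of sgRNA Ctrl. LYZ, which encodes lysozyme, had 270.6 and 215.1 CPM with sgRNA Ctrl and 2643 and 3367 CPM with sgNPM1A, a 12.4-fold rise in which every edited library exceeded every control (edgeR adjusted p = 3.94e-08). The receptor gene CSF1R (1.22, edgeR adjusted p = 2.35e-06), the integrin gene ITGAM (2.33, edgeR adjusted p = 3.74e-05), KLF4 (0.91), EGR1 (0.78) and MPEG1 (1.09) were also called higher. The phagocyte oxidase gene CYBB (-0.34) and the protease gene CTSS (-0.36), both described as IRF8 targets, were lower, and this count of 2 ranged from 0 to 2 with 1 library left out.

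**Figure D5:**
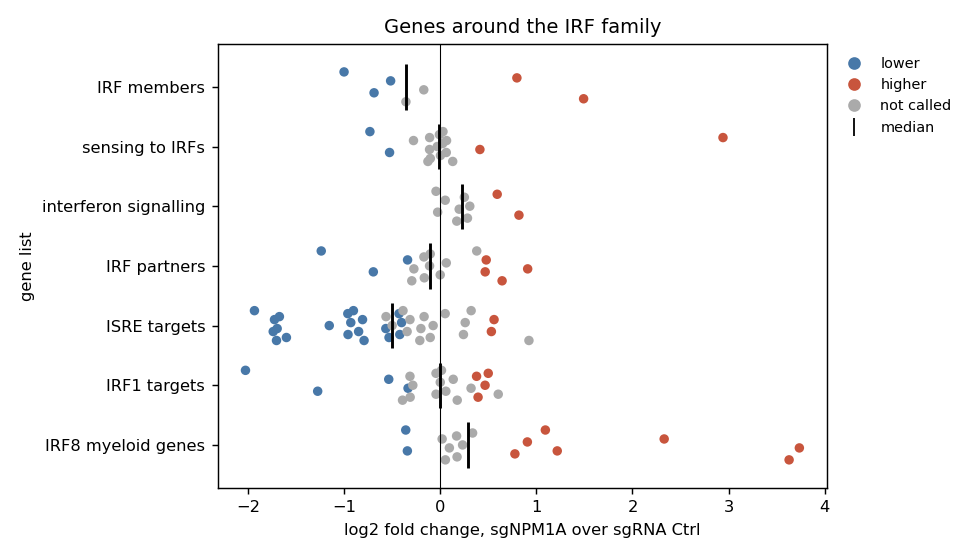
Log2 fold change, sgNPM1A over sgRNA Ctrl, of every tested gene of the IRF family and of 6 gene lists, with genes called higher in red, called lower in blue, others in grey and the median as a bar. The ISRE targets spread to the left (median -0.50) and the IRF8 myeloid genes to the right (median 0.28), while of the sensing genes RIGI (-0.73) and IFIH1 (-0.53) lie to the left, SLC15A4 (0.41) and TLR8 (2.94) to the right and the others between -0.28 and 0.13.

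The genes most like IRF5 over the 4 libraries were NTSR1, PCOLCE2 and FYB1. Their log2 CPM, centred over the libraries, differed from that of IRF5 by a root mean square of 0.019, 0.0347 and 0.0368, the smallest among 15717 other tested genes. FYB1, an adaptor of hematopoietic cells, had 22.7 and 22.4 CPM with sgRNA Ctrl and 63.5 and 62.2 CPM with sgNPM1A. NTSR1, a neurotensin receptor, had 11.2 and 11.004 against 31.0 and 31.9 CPM, and PCOLCE2, a collagen-processing enhancer, 7.04 and 7.26 against 19.8 and 21.9 CPM. With 4 libraries in 2 conditions, likeness here means little more than an equal fold change with tight replicates.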

How the data were processed

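RNA-Seq libraries of OCI-AML3 cells (2 sgRNA Ctrl, 2 sgNPM1A) were analysed from raw counts per Ensembl gene, which the authors deposited in 1 table after mapping reads to hg38 with STAR. The counting program, annotation and strandedness are not given in the sources used here, and 0 columns were left out. The members and gene lists were chosen with earlier results of these data known. edgeR 4.0.16 in R 4.3.3 was run on all genes passing filterByExpr (minimum count 10), with TMM normalization, a robust two-sided quasi-likelihood F test and Benjamini-Hochberg adjustment over all tested genes. CPM are TMM-normalized. No block was used, and 2 against 2 libraries could not go below p = 0.333 in an exact permutation test. The study calls the libraries biological replicates, and within a condition they differed by more than sampling noise (chi-square per degree of freedom 9.2 and 4.19). Named were all members, NPM1, the 4 called genes of each list with the smallest adjusted p (the 2 most abundant where fewer than 2 were called), the 3 genes most like IRF5, STAT2 and SPI1, and some genes that this rule names are not reported here. Others were named after their values were seen. Lengths and overlaps come from GENCODE models, positions and promoters from RefSeq on GRCh38.p14. Scripts were tested on simulated data. DESeq2 1.42.0 and limma 3.58.1 were among the alternatives.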

Additional observations from a re-analysis of the deposited data

How the results depend on the processing

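Of the 5 members called, the calls of IRF1 and IRF5 held under all 15 alternatives. IRF1 passed a fold threshold of 2 only narrowly, with a 2.001-fold decline. The calls of IRF2 and IRF8 held under all alternatives but that threshold. The call of IRF7 held under all but that threshold and the omission of library 1 of either condition. No value changed direction among the called members. A fold threshold of 2 left 1000 of all 15718 tested genes called. Among them were 2 IRF members, 1 sensing gene, 0 interferon signalling genes and 1 partner gene. They also held 8 ISRE targets, 2 IRF1 targets and 5 IRF8 myeloid genes. The sensing gene was TLR8, and the ISRE targets included IFIT1, IFIT2 and IFI44L. These genes passed the filter on low counts only through the condition where they were high, so their calls support nothing by themselves. With no fold threshold, 4 interferon signalling genes and NPM1 (log2 fold change -0.22) were called. After quantile normalization limma-trend called NPM1 as well (-0.42), and DESeq2 called 2 sensing genes, in each case for a cause that was not tested. With 1 library left out, sensing genes called ranged from 2 to 4, interferon signalling genes from 1 (without library 2 of sgRNA Ctrl) to 4 (without library 1), IRF members from 4 to 5 and all genes from 2390 to 3145. By CPM without length 6 of 8 members kept their rank in both conditions, as IRF5 stood above IRF3 with sgNPM1A. By the length of the union of exons, an alternative chosen after seeing the data, 4 of 8 did. On that scale IRF5 stood above IRF1 in both conditions, and IRF7 stood above IRF2 with sgNPM1A.

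Libraries carry the numbers 1 and 2 in both conditions, which pairs nothing by itself, and deviations of libraries with the same number correlated at -0.13 over 15718 genes and at -0.523 over the 8856 genes with a mean above 10 CPM. With the replicate block 3241 genes were called, and 3873 with the crossed pairing, added after seeing the data. With 2 libraries per condition, members under about 100 counts, such as IRF9, give wide intervals.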

Other observations

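The tested protein-coding genes nearest to each member on either side were also read. Of these 16 neighbours, 3 were called, all higher with sgNPM1A. Of all tested genes, 20.8% were called in either direction and 10.5% were called higher. Whether the neighbours differ from all tested genes was not tested. KCP, before IRF5, had 29 and 33 counts with sgRNA Ctrl and 58 and 54 with sgNPM1A (log2 fold change 0.73, edgeR adjusted p = 0.0407). TNPO3, on the other side of IRF5 and separated by 4146 bases, had a log2 fold change of 0.23 (edgeR adjusted p = 0.0264), under the fold threshold. COX4I1 and MTHFSD, on either side of IRF8 at 92093 and 607576 bases, had log2 fold changes of 0.35 (edgeR adjusted p = 0.0114) and 0.34 (edgeR adjusted p = 0.0170). None of the neighbours of IRF1, IRF2 and IRF7 was called, and the log2 fold changes of those 6 genes lay between -0.37 and 0.18.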
